A study of Mus musculus with 5 samples.

Results

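The Slc25 genes encode the mitochondrial carrier family, and they were followed here through the kidney cortex of Fnip1 null and wildtype mice. Members were every gene symbol made of Slc25a and a number, which gave 47 genes of the 24421 in the count tables. RNAseq of cortical kidney tissue was available for 3 Fnip1-/- mice (8637, 9210 and 9121) and 2 Fnip1+/+ mice (9055 and 9056), all on the C57BL6J strain, with 1 library for each mouse. For mouse 9210 the sample title and the file name give different numbers, and the title was followed. The null allele came from chemical (ENU) mutagenesis and is constitutive, so it is not limited to a cell type, and no treatment of the mice is given. The study describes adult mice, the labels give neither the age nor the sex of a mouse, and the study's text calls the controls Fnip1+/- in places where the labels give Fnip1+/+, so they are called wildtype here. The question addressed is which routes across the inner mitochondrial membrane differ in mRNA level when Fnip1 is lost.

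Fnip1 binds Folliculin, the product of the gene mutated in Birt-Hogg-Dube' syndrome, and the AMP kinase AMPK, which senses cellular energy. The carriers are small proteins that span the inner membrane and exchange a substrate between cytosol and mitochondrial matrix: ATP for ADP, phosphate for protons, dicarboxylates for phosphate, amino acids, iron, coenzyme A and others. The renal cortex is rich in proximal tubule, whose reabsorption runs on mitochondrial ATP, and it makes glucose and handles organic acids through the same exchangers.

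Of the 47 Slc25 genes, 41 had enough counts to be tested, and none passed an FDR of 5% in edgeR's quasi-likelihood test, with or without a 2-fold threshold. Over all 13874 genes tested, 0.678% passed the FDR and 0.526% also reached 2-fold. At an unadjusted p under 0.05 there were 8 members and 3488 genes in all. The study's methods name edgeR but not which of its tests, and edgeR's exact test, which called 9.77% of all genes at an FDR of 5%, called 2 members: Slc25a4 was upregulated and Slc25a21 was downregulated in Fnip1 null tissue. RNA of whole tissue cannot tell fewer cells of a type apart from less RNA in each cell.

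The members differed little on average and their signs were mixed. The log2 fold change was negative, meaning lower in Fnip1 null tissue, for 25 of 41 members (61.0%, against 49.5% of all genes tested), and its median was -0.07 over the members and 0.00 over all genes. All 3 null mice lay below both wildtype mice for 12 members (29.3%, against 23.0% of all genes) and above both for 6 (14.6%, against 22.9%). These shares of all genes are also the background for the counts of members and listed genes below, except those with library size alone. The balance of signs rests on the scaling of the libraries. With library size alone, the median of all genes became 0.17 and the members' median became 0.10. In that setting 15 of 41 members and 3765 of 13874 genes tested were negative. The latter share is the background for the later counts with library size alone. Summed over all members, the share of gene counts was 0.682%, 0.702% and 0.713% in null mice 8637, 9210 and 9121, against 0.635% and 0.674% in controls 9055 and 9056. The normalized sums were 6930, 6598 and 6546 CPM (counts scaled to a common library size) against 6644 and 7372, so the null mice were above wildtype on the first scale and overlapped it on the second.

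**Figure D1:**
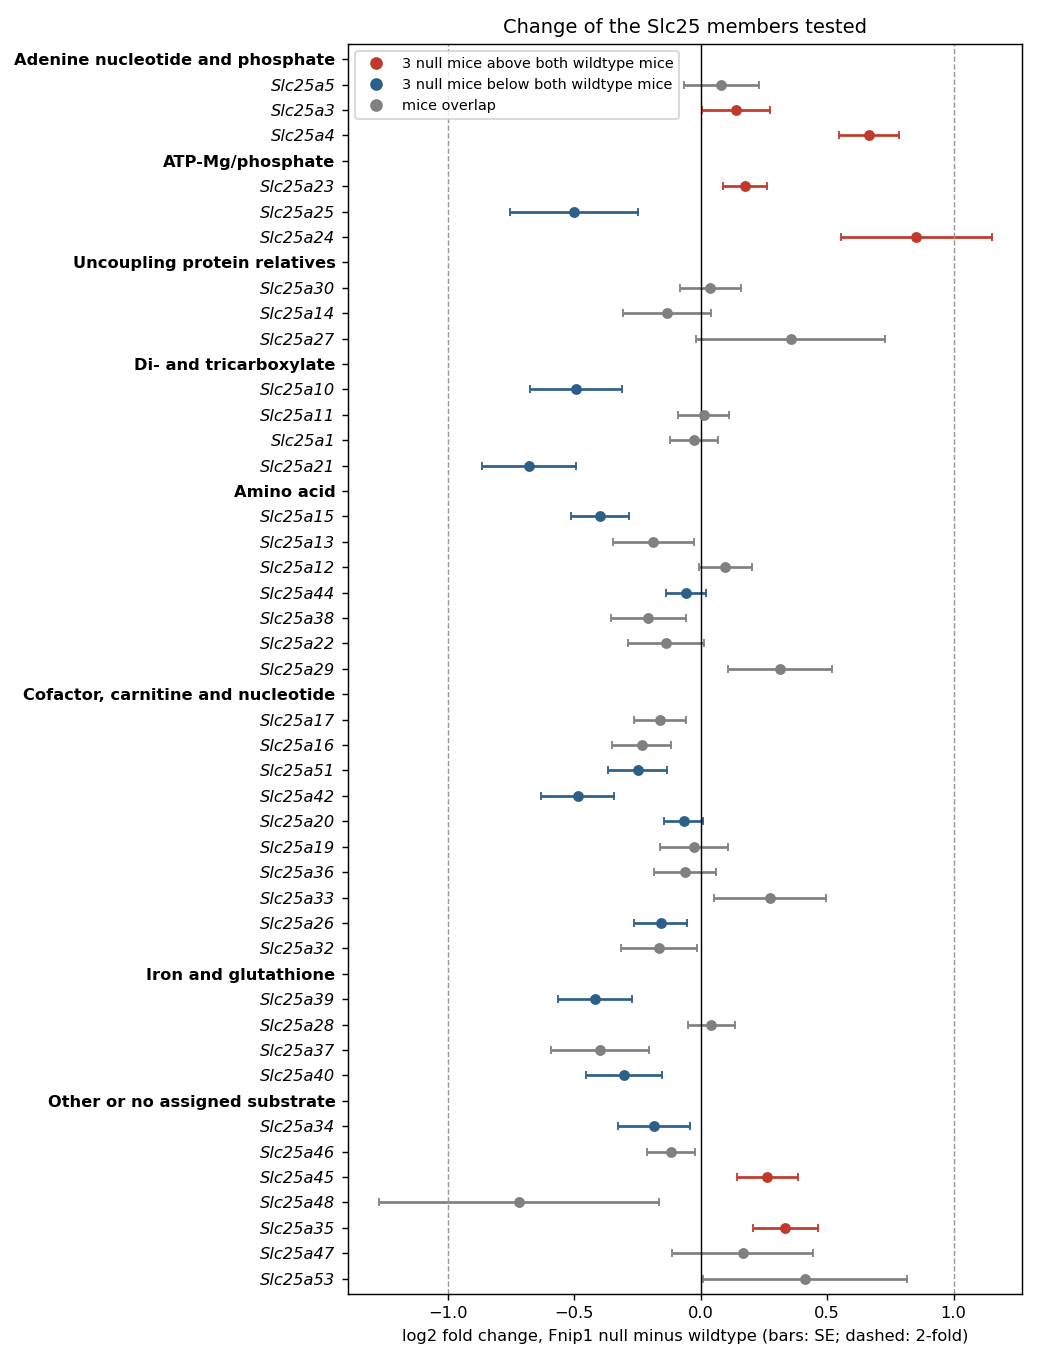
Log2 fold change of each of the 41 Slc25 members tested, Fnip1 null minus wildtype, with its SE (3 null and 2 wildtype mice), grouped by substrate. Red points have all null mice above both wildtype mice (6 members), blue points below (12 members), and grey points overlap. Slc25a4 at 0.67 stands apart with a small SE, and Slc25a48 at -0.72 has the widest.

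Some facts of the libraries bear on these values. Gene counts per library ran from 15799114 to 19132145, and 3 counts in a library correspond to 0.158 to 0.186 normalized CPM. Fnip1 itself was at 21.0, 16.9 and 16.0 normalized CPM in null mice 8637, 9210 and 9121 and 51.8 and 48.7 CPM in the controls, lower in every library labelled null (edgeR quasi-likelihood adjusted p = 0.033). Null mouse 8637 lay closest to the wildtype mean of the 3 null mice for 28 of 41 members (68.3%, against 57.3% of all genes). Null mouse 9121 had 314 CPM of Xist and at most 0.370 CPM of each of 4 Y-linked genes. The other 4 mice had at most 1.41 CPM of Xist and at least 17.3 CPM of each Y-linked gene. By these genes mouse 9121 is female and the others, both wildtype mice included, are male, though sex is not in the labels. The 7 proximal tubule markers summed to 8494 to 11190 CPM in null against 11740 to 12470 CPM in wildtype mice. Slc34a1 alone was at 3963 to 5368 CPM in null and 5717 to 6346 CPM in wildtype mice. The markers disagreed: 5 of 7 log2 fold changes were negative, while Slc5a12 and Slc5a2 were above in all null mice (0.63 and 0.26). Lrp2, Cubn and Slc34a1 were abundant in every mouse. Summed collecting duct markers were at 452 to 641 CPM in null and 321 to 331 CPM in wildtype mice (4 of 5 genes above in all null mice), distal convoluted tubule markers at 1489 to 1705 against 1068 to 1253 CPM (2 of 3), and endothelial markers at 218 to 290 against 121 to 201 CPM (2 of 4). Leukocyte markers (63.3 to 111 against 80.4 to 90.2 CPM) and thick ascending limb markers (6439 to 9908 against 6290 to 7346 CPM) overlapped in sum. Of 6 leukocyte markers tested, however, Ptprc, Cd68, Adgre1 and Itgam were above in all null mice (log2 fold changes 1.03 to 1.53). The most abundant, Csf1r, was below (-0.61). Over all genes tested, 22.9% were above in all null mice. The 3 brown adipocyte markers summed to at most 3.86 CPM. The part of sex or of these cell types in the results below was not tested.

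The carriers were ordered by their mean over all mice of FPKM, the normalized CPM divided by the kilobases of annotated exon. Slc25a5 (Ant2), an exchanger of ATP for ADP, was the highest at 1120 ± 5.19 FPKM in null (SD, n = 3) and 1059 ± 81.5 in wildtype tissue (SD, n = 2). Slc25a3, the phosphate carrier that feeds ATP synthase, followed at 564 ± 13.1 and 512 ± 29.2 FPKM. Slc25a39, needed for glutathione import into mitochondria, stood at 379 ± 44.2 and 507 ± 38.6 FPKM, so in wildtype tissue it did not differ from Slc25a3 beyond the spread, while in null tissue it lay below it.

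Slc25a10, the dicarboxylate carrier, came before Slc25a4 (Ant1) in both wildtype mice and in null mouse 8637, and after it in null mice 9210 and 9121. In the wildtype mice Slc25a10 was at 304.0 and 377 FPKM and Slc25a4 at 167 and 179 FPKM. In null mice 8637, 9210 and 9121 Slc25a10 was at 289, 207 and 230 FPKM and Slc25a4 at 251, 296 and 278 FPKM. The 2 carriers were thus clearly apart in wildtype and overlapping in null mice. Below them stood Slc25a11, which exchanges oxoglutarate for malate, at 130 ± 5.90 FPKM in null and 129 ± 12.1 in wildtype tissue, then Slc25a1, the citrate carrier (76.7 ± 5.24 and 78.0 ± 3.99), and Slc25a17, the carrier of the peroxisome (63.5 ± 5.46 and 71.0 ± 3.52).

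At the other end, 6 members were below the filter. Slc25a31 (Ant4, known from testis) and Slc25a54 had no count in any library, Slc25a18 and Slc25a41 had at most 1 count, Slc25a2 at most 5 and Slc25a43 between 5 and 15. A count of 0 allows up to the 3 counts named above, for counting error only.

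**Figure D2:**
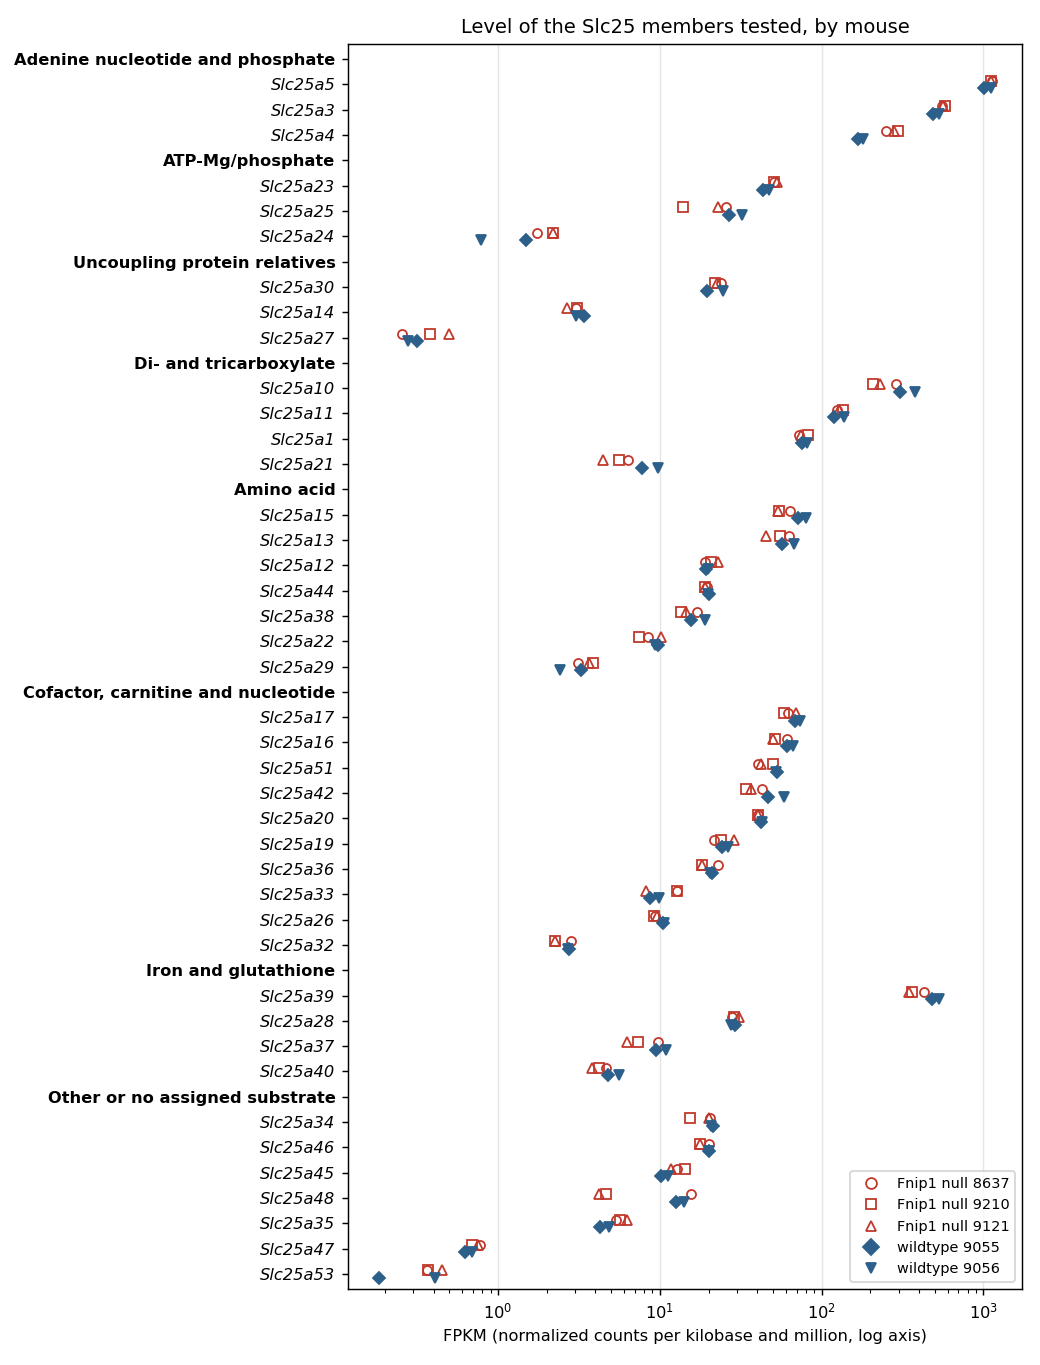
FPKM of the 41 members tested in each mouse (log axis), grouped by substrate and ordered by mean level within a group. Open red symbols are the 3 Fnip1 null and filled blue symbols the 2 wildtype mice. Mean levels run from Slc25a5 above 1000 FPKM to Slc25a27 below 1, and Slc25a4 and Slc25a10 separate in wildtype but not in null mice.

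The adenine nucleotide carriers were examined first, since they set the supply of ADP to ATP synthase. Slc25a4 (chr8:46206797-46211284, GRCm38, minus strand) encodes Ant1, the form known from heart and muscle. It was at 482, 570.0 and 536 CPM in null mice 8637, 9210 and 9121, against 322 and 345 CPM in controls 9055 and 9056, so every null mouse was well above both wildtype mice. The means were 529 ± 44.1 and 334 ± 16.2 CPM, a ratio of 1.59 (log2 fold change 0.67, SE 0.12, quasi-likelihood adjusted p = 0.065). Slc25a4 passed an FDR of 5% in edgeR's exact test (adjusted p = 0.0062), in its likelihood ratio test (adjusted p = 0.0059) and in DESeq2 (adjusted p = 2.5e-05). Leaving out each mouse in turn gave log2 fold changes from 0.61 to 0.73. The quasi-likelihood adjusted p was 0.0097 without mouse 8637 and 0.076 to 0.54 without each of the others, and leaving out mouse 9121 gave 0.0053 in the exact test. None of the 50-base stretches of its transcripts was found in another gene.

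Slc25a5, by contrast, was nearly level between the genotypes. It was at 1397, 1387 and 1384 CPM in the null and 1242 and 1385 CPM in the wildtype mice (log2 fold change 0.08, SE 0.15), and wildtype mouse 9056 lay within the range of the null mice. The gene is X-linked, and mouse 9121, with its high Xist, lay with the other null mice. Of the 50-base stretches of its transcripts, 33.8% also occur in 10 other genes, 9 of them pseudogenes, and reads that align to several places were not counted. Slc25a3 was at 1075, 1125 and 1092 CPM in null and 956 and 1036 CPM in wildtype mice, without overlap but with a log2 fold change of 0.14 (SE 0.13, adjusted p = 0.54).

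The ratio of Slc25a4 to Slc25a5 within a mouse does not depend on how libraries were scaled. It was 0.345, 0.411 and 0.387 in null mice 8637, 9210 and 9121 and 0.260 and 0.249 in the wildtype mice. The log2 ratio was higher by 0.58 in null tissue (exact permutation p = 0.1, the smallest that 3 mice against 2 allow, and 0.375 after adjustment over the 5 ratios compared). Leaving out any mouse kept this difference between 0.52 and 0.65. The share of Ant1 in the sum of the 2 abundant ADP/ATP carriers was therefore higher in each of the 3 null mice.

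The ATP-Mg/phosphate carriers load adenine nucleotides into the matrix under the control of calcium, and their 3 tested members did not share a direction. Slc25a24 was at 5.95, 7.55 and 7.498 CPM in the null mice and 5.10 and 2.69 CPM in the wildtype mice, on 47 to 142 counts a library. All null mice lay above both wildtype mice, although mouse 8637 was close to mouse 9055 (ratio 1.80, log2 fold change 0.85, SE 0.30, adjusted p = 0.16, exact test 0.099). This is the largest positive log2 fold change of the 41 members, and it ran from 0.46 without mouse 9056 to 1.38 without mouse 9055. Slc25a25 was at 106, 57.01 and 94.1 CPM in null and 111 and 132 CPM in wildtype mice, below in all null mice and lowest in 9210 (log2 fold change -0.50, SE 0.25, adjusted p = 0.27), and without mouse 9210 the log2 fold change was -0.28. Slc25a23 was slightly higher in all null mice (log2 fold change 0.18, adjusted p = 0.26).

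Slc25a25 outnumbered Slc25a24 by 17.9, 7.55 and 12.6 in the null mice and by 21.8 and 49.0 in the wildtype mice. The log2 ratio was lower by 1.45 in null tissue (difference -1.455, exact permutation p = 0.2, adjusted 0.375), with no overlap between the genotypes, and it ran from -0.87 without mouse 9056 to -2.04 without mouse 9055. Naif1 overlaps 379 exonic bases of Slc25a25 on the opposite strand, and it is not stated whether counting used the strand, so reads there cannot be told apart.

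Among carriers of di- and tricarboxylates, which move citrate, malate, oxoglutarate and related acids, 3 of 4 log2 fold changes were negative (2 of 4 with library size alone) and 2 were without overlap. Slc25a21 (chr12:56712634-57197472, minus strand) carries oxoadipate, an intermediate of lysine and tryptophan breakdown. It was at 17.5, 15.5 and 12.4 CPM in null mice 8637, 9210 and 9121 and at 21.3 and 27.0 CPM in the wildtype mice. All null mice were below both wildtype mice, with means of 15.1 ± 2.59 and 24.1 ± 4.02 CPM (ratio 0.625, log2 fold change -0.68, SE 0.19, quasi-likelihood adjusted p = 0.11). Slc25a21 passed the FDR of 5% in the exact test (adjusted p = 0.028), the likelihood ratio test (adjusted p = 0.027) and DESeq2 (adjusted p = 0.036). Without mouse 9121 the log2 fold change was -0.55 and the adjusted p in the exact test 0.070, and the exact test was not run without each of the other mice. Pax9 overlaps 189 of its exonic bases on the opposite strand.

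Slc25a10 was at 585, 419 and 464 CPM in the null mice and 615 and 763 CPM in the wildtype mice. Its null mice were all lower, 8637 by little (log2 fold change -0.49, SE 0.18, adjusted p = 0.17). Gm11788 overlaps 228 exonic bases of Slc25a10 on the opposite strand. Slc25a1 was at 121, 138 and 125 CPM in null and 125 and 135 CPM in wildtype mice, and Slc25a11 at 213, 233 and 220 against 205 and 235 CPM. Neither of these abundant carriers showed a difference (log2 fold changes -0.03 and 0.01, each with an SE of 0.10), and their sign changed with the scaling or filter.

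**Figure D3:**
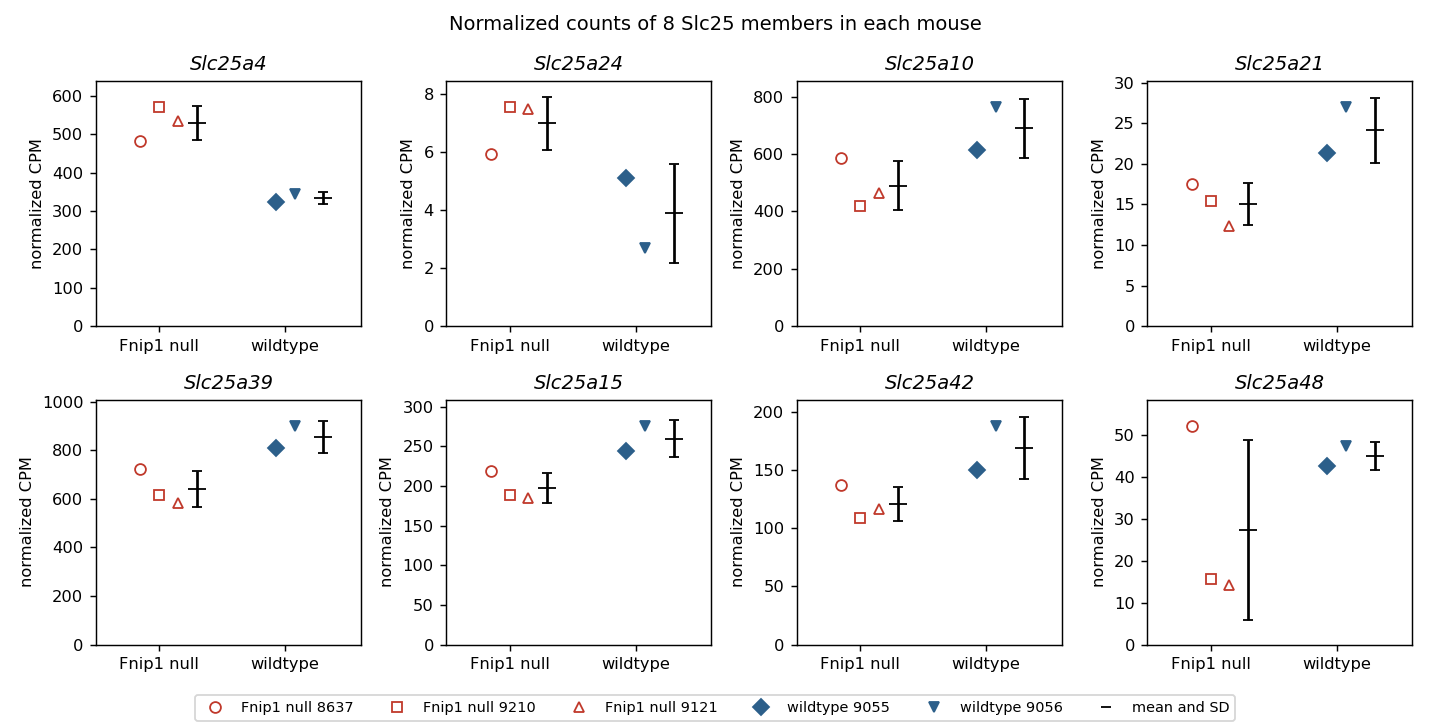
Normalized CPM of 8 members in each mouse, with the mean and SD beside each genotype and axes from 0. In Slc25a4 and Slc25a24 the null mice lie above wildtype, in Slc25a10, Slc25a21, Slc25a39, Slc25a15 and Slc25a42 they lie below with mouse 8637 nearest to wildtype, and in Slc25a48 mouse 8637 lies above both wildtype mice while the other null mice lie far below.

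Amino acid carriers gave 5 negative log2 fold changes among 7 tested, with a median of -0.14, and 3 negative ones with library size alone. Slc25a15, the ornithine carrier of the urea cycle, was at 219, 188 and 185 CPM in null and 243 and 276 CPM in wildtype mice, with no overlap (log2 fold change -0.40, SE 0.12, adjusted p = 0.12, DESeq2 0.049). The aspartate/glutamate exchangers of the malate-aspartate shuttle are Slc25a12 (Aralar) and Slc25a13 (Citrin). Slc25a12 was at 121, 133 and 146 CPM in null and 123 and 126 CPM in wildtype mice, and Slc25a13 at 197, 172 and 141 against 177 and 210 CPM. The genotypes overlapped in both, and mouse 9121 had the highest Slc25a12 and the lowest Slc25a13. Their ratio was 0.615, 0.770 and 1.03 in the null and 0.697 and 0.596 in the wildtype mice (log2 difference 0.29, exact permutation p = 0.4), and the difference was 0.09 without mouse 9121.

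Cofactor, carnitine and nucleotide carriers had negative log2 fold changes in 9 of 10 members tested (against 49.5% of all genes), with a median of -0.16. In 4 of the 10, all null mice lay below both wildtype mice (Slc25a20, Slc25a26, Slc25a42 and Slc25a51), against 23.0% of all genes. With library size alone 4 of the 10 were negative, and Slc25a17, Slc25a20, Slc25a26 and Slc25a36 were among those that turned positive. Slc25a42, which brings coenzyme A into the matrix, was at 137, 108 and 116 CPM in null and 149.9 and 188 CPM in wildtype mice (log2 fold change -0.49, SE 0.14, adjusted p = 0.12, and -0.31 without mouse 9056). The carnitine carrier Slc25a20, on the route of long-chain fatty acids to oxidation, was at 72.5, 72.1 and 72.4 CPM against 75.5 and 76.0 CPM. The genotypes were separate but the log2 fold change of -0.07 was smaller than its SE of 0.08. The NAD carrier Slc25a51 had a log2 fold change of -0.25 (adjusted p = 0.24).

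Slc25a33 and Slc25a36 both carry pyrimidine nucleotides. Slc25a33 was at 24.2, 24.1 and 15.4 CPM in null and 16.4 and 18.7 CPM in wildtype mice, and it was the 1 positive member of this group with all mice and TMM scaling (log2 fold change 0.27, SE 0.22). Slc25a36 was at 122, 97.2 and 97.3 against 112 and 108 CPM. Both overlapped, and the log2 ratio of the first to the second differed by 0.32 (exact permutation p = 0.3), and by 0.16 without mouse 9210. Slc25a33 shares 281 exonic bases with Gm13068 on the opposite strand.

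Among carriers of iron and glutathione, 3 of 4 log2 fold changes were negative, also with library size alone. Slc25a39 was at 723, 614 and 581 CPM in null and 808 and 900.2 CPM in wildtype mice, without overlap (log2 fold change -0.42, SE 0.14, adjusted p = 0.15, DESeq2 0.047). Its relative Slc25a40 was also lower in all null mice at a much lower level (log2 fold change -0.30, adjusted p = 0.26). The iron importers are Slc25a37 (mitoferrin 1) and Slc25a28 (mitoferrin 2). Slc25a37, better known from red cell precursors, was at 40.6, 30.7 and 26.1 CPM in null and 39.7 and 45.8 CPM in wildtype mice (log2 fold change -0.40, SE 0.19, adjusted p = 0.25). Its exons overlap Gm27223 and Gm31748 on the opposite strand (473 bases summed over both). Slc25a28 was at 43.0, 44.1 and 47.4 against 44.7 and 42.3 CPM (log2 fold change 0.04). The log2 ratio of Slc25a37 to Slc25a28 was lower by 0.46 in null tissue (difference -0.459, exact permutation p = 0.3), with mouse 8637 within the wildtype range, and it was -0.27 without mouse 9121 and -0.66 without mouse 8637.

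**Figure D4:**
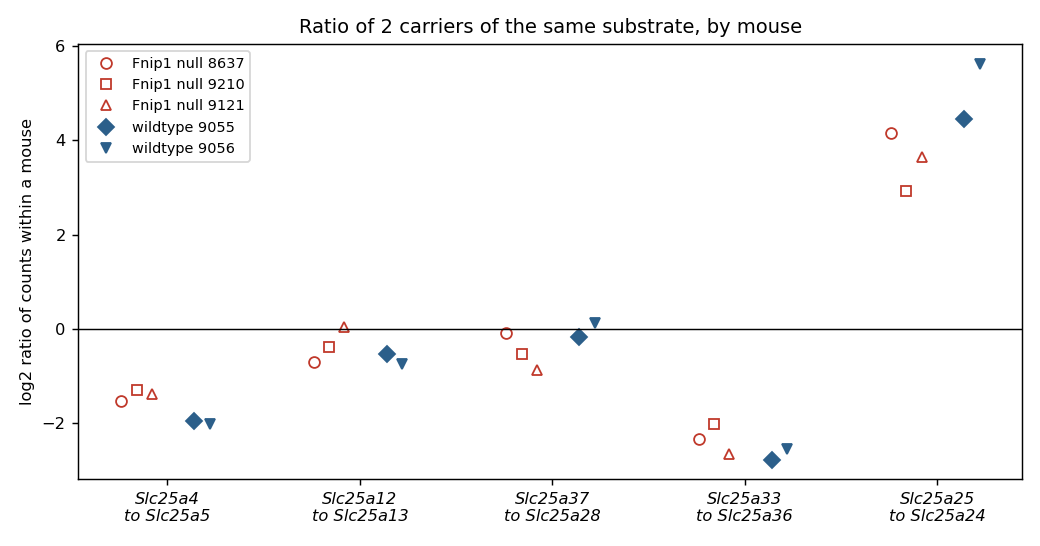
Log2 ratio of the counts of 2 carriers of one substrate within each mouse, for 5 pairs. Red open symbols are Fnip1 null and blue filled symbols wildtype mice. The genotypes are separate for Slc25a4 to Slc25a5 (higher in null) and for Slc25a25 to Slc25a24 (lower in null) and overlap for the other 3 pairs.

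The relatives of the uncoupling proteins (Slc25a14, Slc25a27 and Slc25a30) all overlapped between genotypes, with log2 fold changes from -0.13 to 0.36. In the group with other or no assigned substrate, 4 of 7 log2 fold changes were positive (5 of 7 with library size alone). Slc25a45 and Slc25a35 were higher in all null mice (log2 fold changes 0.26 and 0.34, adjusted p = 0.23 and 0.18), where 25.1% of the 50-base stretches of Slc25a35 are shared with 7 other genes. Rangrf overlaps 820 exonic bases of Slc25a35 on the opposite strand. Slc25a34 was lower in all null mice (-0.18, adjusted p = 0.45). Slc25a46, an outer membrane protein that acts in fission, had a log2 fold change of -0.12 (0.04 with library size alone), and Slc25a47 and Slc25a53 were at the low end of the levels and overlapped.

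Slc25a48 (chr13:56438355-56474239, plus strand), linked to choline uptake by mitochondria, is described because of its spread between null mice, and was chosen after its values were seen. It was at 52.3, 15.6 and 14.3 CPM in null mice 8637, 9210 and 9121 and at 42.6 and 47.4 CPM in the wildtype mice. Mouse 8637 was above both wildtype mice and the other 2 null mice far below them. With all mice the log2 fold change was -0.72 (SE 0.55, adjusted p = 0.45). Without mouse 8637 it was -1.59 (quasi-likelihood adjusted p = 0.0039), the 1 member to pass both the FDR and 2-fold in that fit. The gene was chosen because mouse 8637 differed, so this p-value cannot serve as a test of it. That fit has 2 null and 2 wildtype mice, and 20.0% of all genes passed its FDR, 911 genes also at 2-fold.

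Leaving out mouse 8637 changed the counts most. The quasi-likelihood test then called 9 of 41 members at an FDR of 5% (22.0%, against 20.0% of all genes tested), so the members were called about as often as other genes. Slc25a4 was upregulated, and Slc25a10, Slc25a15, Slc25a16, Slc25a21, Slc25a37, Slc25a39, Slc25a42 and Slc25a48 were downregulated in mice 9210 and 9121 against wildtype. Their log2 fold changes in this fit included -0.64 for Slc25a10 (adjusted p = 0.028), -0.51 for Slc25a39 (adjusted p = 0.030), -0.47 for Slc25a15 (adjusted p = 0.024), -0.58 for Slc25a42 (adjusted p = 0.027) and -0.59 for Slc25a37 (adjusted p = 0.031). The same 2 mice had lower proximal tubule markers than mouse 8637 (9329 and 8494 against 11190 CPM summed). They also had more adipocyte marker RNA (197 and 113 CPM against 50.5 CPM, with 34.0 and 28.9 CPM in wildtype mice). Mouse 9121 is also the 1 mouse with high Xist. The part of each of these in the differences was not tested. Leaving out any of the other 4 mice gave 0 members called.

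Genes around the family were taken from lists of their own. Of carriers of the same fold under other symbols, Ucp2 was at 103, 128 and 140 CPM in the null mice and 88.0 and 102 CPM in the wildtype mice (log2 fold change 0.38, adjusted p = 0.19). The log2 fold changes of the outer membrane members Mtch1 and Mtch2 were 0.24 and -0.15 (0.02 for Mtch2 with library size alone), and Ucp1 and Ucp3 were too low to be tested. The machinery that inserts Slc25 proteins into the inner membrane (small Timm chaperones, Timm22, Agk and the receptor Tomm70a) had 8 of 9 log2 fold changes negative (3 of 9 with library size alone) and none past the FDR in either edgeR test, led by Timm9 (-0.48, adjusted p = 0.17) and Tomm70a (-0.34, adjusted p = 0.23).

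Of 7 other inner membrane carriers, none passed the quasi-likelihood test and Sfxn3 was upregulated by the exact test, which called 9.77% of all genes. Sfxn3, a relative of the serine transporter Sfxn1, was at 37.2, 51.6 and 46.3 CPM in null and 28.0 and 26.9 CPM in wildtype mice (log2 fold change 0.71, SE 0.15, quasi-likelihood adjusted p = 0.079, exact test 0.0059). Among 4 enzymes of the malate-aspartate shuttle, which work with Slc25a11, Slc25a12 and Slc25a13, cytosolic Got1 was at 186, 187 and 168 CPM in null and 129 and 138 CPM in wildtype mice. It had a log2 fold change of 0.44 (SE 0.09, quasi-likelihood adjusted p = 0.080, exact test 0.047), while the log2 fold changes of Mdh1 and Mdh2 were -0.06 (0.11 with library size alone) and 0.06. Of 5 carnitine acyltransferases, Cpt2, which works beside Slc25a20, was lower in all null mice (-0.39, adjusted p = 0.10). The less abundant Cpt1b and Cpt1c were higher in all null mice (0.67 and 0.75, adjusted p = 0.19 and 0.25). The 3 porins of the outer membrane lay between -0.23 and 0.23.

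**Figure D5:**
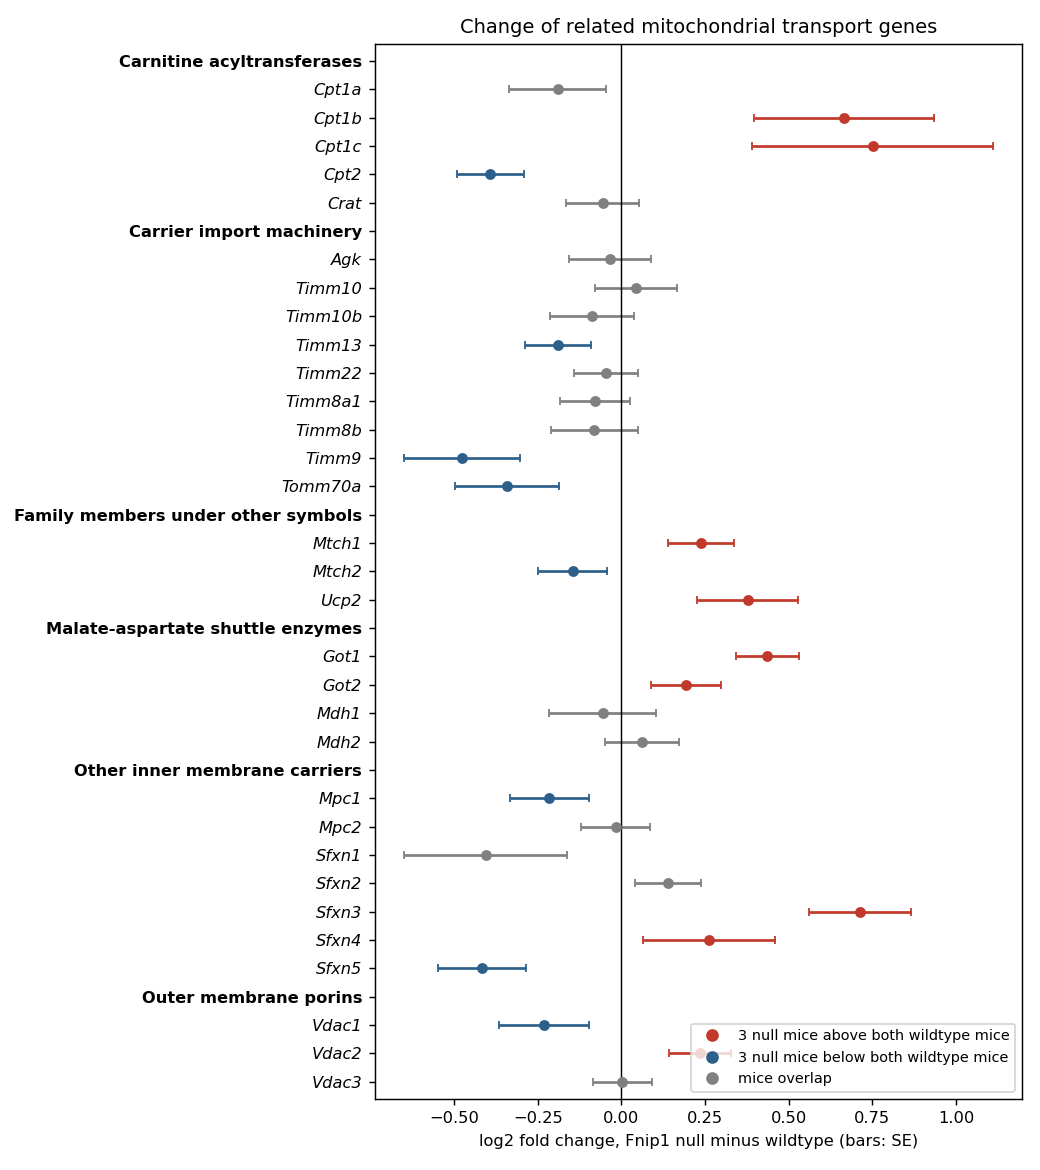
Log2 fold change, Fnip1 null minus wildtype, with SE for the tested genes of 6 lists of mitochondrial transport genes outside the Slc25 symbols. Colours mark whether all null mice lay above (red) or below (blue) both wildtype mice or overlapped (grey). Sfxn3 at 0.71 and Got1 at 0.44 are the 2 genes past an FDR of 5% by the exact test, which called 9.77% of all genes.

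The sequence before the start of transcription was searched because Folliculin, with Fnip1, controls the factors TFEB and TFE3, which bind E-boxes with the letters CACGTG. RefSeq promoters (GRCm38.p6) were found for 36 members, and the 250 bases before each start were read on both strands. CACGTG was present for 7 of 36 members (in 8 of 46 promoters) and in 6.02% of all 32851 promoters. The share over all counts promoters and not genes. Overlapping windows of a gene can hold the same match, as those of Slc25a14 do for CACGTG. The GC box GGGCGG was present for 25 members (32 of 46 promoters, 32.7% of all), the palindrome of NRF1 for 2 (3.74% of all promoters) and the ERR half-site TNAAGGTCA for 0 (1.14% of all). The 7 members with CACGTG were Slc25a1, Slc25a13, Slc25a14, Slc25a15, Slc25a31, Slc25a33 and Slc25a36. None of them passed the FDR in any test with all mice except Slc25a15 in DESeq2, and of the 6 tested, Slc25a33 alone had a positive log2 fold change, joined by Slc25a1, Slc25a14 and Slc25a36 with library size alone. A match describes letters and not a bound site.

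Of these windows, 3 are shown 5′ to 3′, each the 250 bases before a RefSeq start, with E-boxes and GC boxes of either strand in capitals. Slc25a1 (chr16:17928220-17928469, minus strand) and Slc25a13 (chr6:6217174-6217423, minus strand) hold an E-box, and Slc25a48 (chr13:56438105-56438354, plus strand), the member with the widest spread, holds none.
Slc25a1: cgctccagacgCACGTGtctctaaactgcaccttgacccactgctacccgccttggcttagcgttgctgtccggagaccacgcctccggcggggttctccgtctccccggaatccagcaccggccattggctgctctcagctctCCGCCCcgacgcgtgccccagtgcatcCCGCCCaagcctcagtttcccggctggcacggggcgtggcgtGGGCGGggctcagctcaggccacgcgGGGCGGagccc
Slc25a13: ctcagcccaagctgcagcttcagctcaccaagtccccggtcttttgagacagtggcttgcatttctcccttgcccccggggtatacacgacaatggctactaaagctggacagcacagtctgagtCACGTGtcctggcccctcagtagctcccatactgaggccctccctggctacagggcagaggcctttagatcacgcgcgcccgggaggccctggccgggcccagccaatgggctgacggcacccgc
Slc25a48: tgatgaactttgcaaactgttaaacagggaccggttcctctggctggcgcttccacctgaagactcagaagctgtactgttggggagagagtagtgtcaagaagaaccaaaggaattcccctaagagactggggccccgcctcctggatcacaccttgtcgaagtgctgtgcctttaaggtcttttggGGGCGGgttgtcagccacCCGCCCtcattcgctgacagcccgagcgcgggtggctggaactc
The E-box of Slc25a1 lies 239 bases before the start and that of Slc25a13 lies 125 bases before it. Both genes overlapped between the genotypes (log2 fold changes -0.03 and -0.19, quasi-likelihood adjusted p = 0.89 and 0.49). Of the tested members with an E-box that are not shown, Slc25a15 was lower in all null mice (-0.40, adjusted p = 0.12). Slc25a14, Slc25a33 and Slc25a36 overlapped.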

How the data were processed

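RNAseq was performed by the authors on cortical kidney tissue, and the libraries of 3 Fnip1 null and 2 wildtype mice were analysed here. Reads were filtered for quality, aligned to mm10 with TopHat 2.1.0 and counted per gene symbol with HTSeq 0.6.1, and the deposited values are these counts, not normalized. HTSeq leaves out reads that align to several places (28.3 to 31.4% of each table's total, where all rows naming no gene made up 39.0 to 42.8%). Those rows were removed here.

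Counts were normalized by TMM and compared in edgeR 4.0.16 (R 4.3.3) by the quasi-likelihood test, with Benjamini-Hochberg adjustment over 13874 genes, which are those with fewer than 10 counts in at most 2 of the 5 mice. The standard error follows from the fold change and its statistic. CPM are TMM-normalized, and FPKM divide them by the exon length of GENCODE M21 (GRCm38), from which coordinates come. Ratios of 2 members were compared by two-sided exact permutation tests (SciPy 1.17.1). Members given in every mouse are those past an FDR of 5% in the quasi-likelihood or exact test, those with non-overlapping mice and 1.5-fold, the 8 highest by FPKM and the members of 5 ratio pairs. Slc25a15, Slc25a42, Slc25a20 and Slc25a48 were added with values known. The members, lists and tests were chosen with earlier results of these data known. P-values measure the spread between these mice. DESeq2 1.42.0, other edgeR tests, normalizations, filters and leaving out each mouse were alternatives. The fits were tested on simulated data. Of the lists of cell type markers, 1 is not reported here.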

Additional observations from a re-analysis of the deposited data

How the results depend on the processing

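The count of members past an FDR of 5% was 0 with edgeR's quasi-likelihood test, 2 with the exact and the likelihood ratio test, 4 with DESeq2, and 1 with the exact test without mouse 9121, an alternative added after seeing the data. Over all genes, those counts were 94, 1356, 1472, 1432 and 1129, and with at least 2-fold 73, 565, 628 and 487 in the first 4. Leaving out each mouse in turn gave 0 to 9 members past the FDR and 0 to 1 also at 2-fold, with 0 to 2776 genes past the FDR and 0 to 911 at 2-fold over all genes. The highest of each came without mouse 8637, and without mouse 9055, 9056 or 9210 no gene was called. The cause was not tested. Without mouse 9121, 138 genes were called at 2-fold and 196 past the FDR. With library size alone, 15 of 41 members and 3765 of 13874 genes tested were negative, with medians of 0.10 and 0.17. Of the 17 members named by rule, 4 near 0 turned direction under some setting, and other members near 0 also turned with library size alone. Slc25a1 was at 0.039 with upper quartile scaling, 0.14 with library size alone and -0.082 to 0.028 with a mouse left out. Slc25a11 was at -0.000915 without the filter and at -0.082 to 0.11 with a mouse left out. With library size alone, Slc25a17 was at 0.0053 and Slc25a36 at 0.10. Among the other values of these members and of Slc25a48, which was added with its values known, 14 crossed the threshold and 247 did neither. The 5 ratios kept their direction without any 1 mouse. The labels pair no null mouse with a wildtype mouse, so no paired analysis was made. Slc25a24 had the lowest depth of the members named by rule, with 47 to 142 counts a library.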
